A study of Arabidopsis thaliana with 12 samples.

Results

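Leaves of Arabidopsis thaliana were compared after 1 h in humid air and after 1 h in dry air. The comparison used 8 of the 12 libraries of the series: 4 from a chamber set to 95% relative humidity (RH; high) and 4 from a chamber set to 40 to 45% RH (low). All plants were untransformed Col-0, the laboratory reference accession, 3.5 to 4 weeks old, raised in soil at 60% RH and 22 °C with 12 h of light per day. The remaining 4 libraries, from another chamber, at 55 to 60% RH (moderate), counted in the filter on low values and in the estimate of spread, and a contrast of low against moderate humidity is given at the end. Genes with at least 1 TPM (a length-scaled share of all transcripts) in at least 4 of the 12 libraries were tested, which kept 17368 of the 32833 genes of the table. The labels leave unsaid how many plants a sample holds and whether the samples of a setting were grown apart. P-values therefore measure the spread between these samples only. Each humidity had a chamber of its own, so chamber and humidity cannot be told apart. TPM keeps no record of sequencing depth, so depth is unknown and no counting intervals are given; 20691 to 20967 genes were above 0 in a library. Tests were made with limma on log2(TPM + 1), with p-values adjusted over all tested genes (Benjamini-Hochberg). Fold changes are high minus low on that scale, which understates the change of low genes, and most are given with their standard error (SE).

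Leaves lose water through stomata, the pores between paired guard cells, and across the cuticle, and dry air raises that loss. The hormone abscisic acid (ABA) is the main signal of water shortage. PYR/PYL receptors that have bound ABA block clade A PP2C phosphatases, which releases SnRK2 kinases to phosphorylate ABF transcription factors and guard cell channels. NCED enzymes make the hormone and CYP707A hydroxylases break it down. Growth of leaf cells, in turn, depends on turgor and on a wall that yields. XTH enzymes cut and rejoin xyloglucan, the tether between cellulose fibrils, expansins loosen the wall without cutting it, and cellulose synthases lay down new fibrils.

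The 8 libraries separated by humidity. Principal component 1 of the log2 values held 56.3% of the variance. It placed the high libraries at 34.1 to 50.6 and the low libraries at -43.4 to -37.9. Component 2 held 12.9% and set low replicate 1 (40.9) against low replicate 4 (-32.3). Correlations were 0.972 to 0.985 within the high group, 0.960 to 0.979 within the low group and 0.917 to 0.944 between the groups. Low replicate 1 held less of its TPM in photosynthetic genes (21.4%) than the other low libraries (24.9 to 26.0%). The high libraries held 21.9 to 23.5%. The groups overlapped (difference of means -1.94 percentage points, two-sided exact permutation p = 0.143, where 0.0286 is the smallest p that 4 against 4 allows), and without low replicate 1 the difference was -2.95. Low replicate 1 also stood apart in general scale, with a median-of-ratios size factor of 1.112. The other low libraries had 0.91 to 0.928, the high ones 0.932 to 0.949 and the moderate ones 1.065 to 1.165. The part of low replicate 1 in the results was measured by leaving it out. Leaf markers were abundant: RCA, the activator of Rubisco, had 12797 ± 818 TPM at low and 12884 ± 838 TPM at high humidity (SD, n = 4 in each). Of the 4 leaf markers 1 was called, LHCB1.3, an antenna protein (high 26161 ± 2105, low 31705 ± 4269 TPM, log2 change -0.27, SE 0.09, adjusted p = 0.046). Low replicate 1 lay inside the range of the high libraries, and the call was lost without high replicate 1, 2 or 3 or low replicate 2, 3 or 4 (adjusted p = 0.059 to 0.131). Root markers PYK10, CASP1, WER, RHD6 and COBL9 stayed at or below 0.51 TPM in all 12 libraries, and the summed root list reached 24.9 to 37.6 TPM at high and 31.4 to 37.6 TPM at low humidity, carried by SCR and SHR, the only members tested. Meristem markers STM, KNAT1 and LFY were each at or below 0.07 TPM, and flower and seed markers summed to 0.48 to 2.14 TPM in the high and low libraries. The vascular markers summed to 168 to 193 TPM at high and 146 to 172 TPM at low humidity: XCP1, a protease of xylem, was lower (14.1, 12.2, 12.9 and 17.6 against 23.9, 23.6, 19.4 and 17.7 TPM, log2 change -0.55, adjusted p = 0.029, lost without high replicate 1, 2 or 3 or low replicate 1 or 2) and SUC2, the sucrose carrier of phloem, was not called (179, 167, 160.4 and 150.2 against 122, 148, 144 and 141 TPM, log2 change 0.24, adjusted p = 0.070). The part of vascular tissue in the results was not tested.

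**Figure D1:**
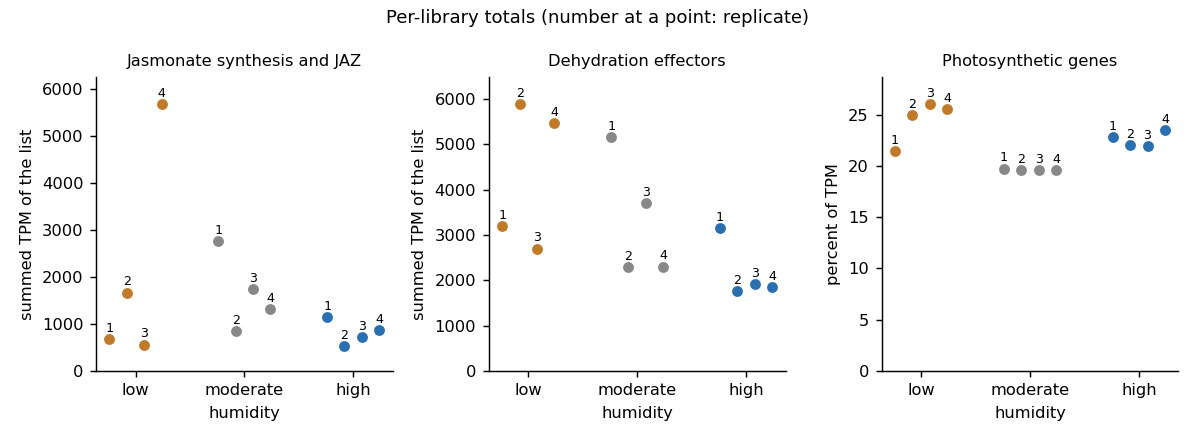
Summed TPM of the jasmonate list (left) and of the dehydration list (middle), and percent of TPM in photosynthetic genes (right), in the 4 low, 4 moderate and 4 high libraries, each point being 1 library with its replicate number. Low replicate 4 stands apart in the jasmonate list (5674 TPM), low replicates 2 and 4 lead the dehydration list (5897 and 5473 TPM), and low replicate 1 is the lowest low library in photosynthetic genes (21.4%).

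At an adjusted p of 0.05, 2156 genes (12.4% of those tested) were higher and 1965 (11.3%) lower at high humidity. The counts per gene list given below are to be read against these shares. Lists and their members were chosen with earlier results of these data known, so an excess over the shares is not independent support. A change of at least 2-fold was found for 821 genes (4.73%) upward and 422 (2.43%) downward. The larger the change, the more often it was a rise: 207 genes were at least 4-fold higher and 68 at least 4-fold lower, and 62 and 16 genes passed 8-fold. The 4 high and 4 low libraries did not overlap for 4571 genes (26.3%). For the genes named as the largest rises and falls, lack of overlap was a condition of selection and so adds no support. It also adds none for genes named from a list for a small adjusted p or chosen after their values were seen. Genes that reached 1 TPM only in the high or only in the low libraries passed the filter through that group, which fixed their direction and lack of overlap. The median change over all tested genes was -0.06 on the log2 scale, the extremes being a rise of 8.60 and a fall of -4.64, which is the value to hold list medians against. In bulk leaves, fewer cells of a type and less RNA per cell cannot be told apart for any of these genes.

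**Figure D2:**
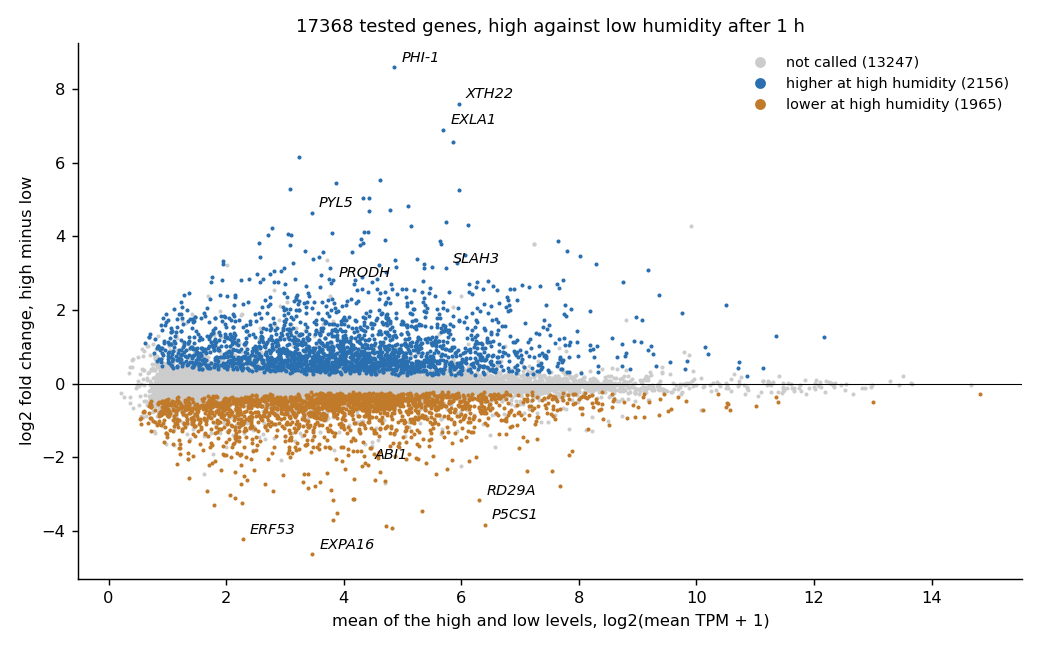
Log2 fold change (high minus low humidity, vertical axis) against the mean level of each of the 17368 tested genes (horizontal axis, log2 scale), with the 2156 genes called higher in blue, the 1965 called lower in orange and genes not called in grey. The rises reach 8.60 and the falls -4.64 and the 6 genes with the largest rises are wall genes or of the EXORDIUM family.

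The 6 genes with the largest rises encode proteins of the wall and the cell surface. PHI-1 (AT1G35140), of the EXORDIUM family of secreted growth-related proteins, was at 643, 493, 696 and 456 TPM in the 4 high libraries and at 0.65, 0.62, 0.1 and 0.5 TPM in the 4 low libraries (log2 change 8.60, SE 0.28, adjusted p = 1.1e-09). It was also low at moderate humidity (2.52, 1.02, 0.28 and 0.5 TPM), and no high library came near a low one. XTH22 (AT5G57560), first described as the touch gene TCH4, was at 967, 578, 976 and 737 at high and 7.98, 2.81, 1.22 and 2.81 TPM at low humidity (log2 change 7.60, SE 0.60, adjusted p = 6.9e-06). EXLA1, an expansin-like protein, was at 688, 492, 655 and 403 against 4.96, 5.01, 2.85 and 2.17 TPM (log2 change 6.90, SE 0.48, adjusted p = 2.1e-06). High replicates 1 and 3 gave the highest values of all of these genes and high replicate 4 the lowest for PHI-1 and EXLA1, but the differences among the high libraries were small beside the gap to the low ones. XTH33 was at 96.2, 63.5, 92.1 and 67.1 TPM at high humidity and at 0.23, 0.1, 0.11 and 0 TPM at low humidity, and was listed at 0 in all 4 moderate libraries (log2 change 6.16, SE 0.14, adjusted p = 2.0e-11). XTH33 passed the filter only through the high libraries, so the direction of its change was fixed in advance.

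Most of the XTH family rose. Of its 33 members 22 were tested, and 18 of these were higher and 2 lower at high humidity, with a median change of 2.10 against -0.06 over all tested genes; over all alternatives tried, 17 or 18 were higher. The family's summed level was 4315 to 5316 TPM in the high libraries, 824 to 1140.1 TPM in the low ones and 1157 to 1263 TPM in the moderate ones. XTH4, the most abundant of the named members, was at 1289.5, 894, 1158 and 1118 at high and 197, 162, 169.9 and 129.6 TPM at low humidity (log2 change 2.75, SE 0.13, adjusted p = 7.7e-09). XTH24 was at 788, 867, 841 and 567 against 71.9, 49.6, 44.9 and 40.7 TPM (log2 change 3.88, SE 0.26, adjusted p = 5.0e-07). XTH16 was at 181, 124, 181 and 177 against 2.61, 1.31, 3.46 and 3.19 TPM (log2 change 5.54, SE 0.25, adjusted p = 1.3e-08), with high replicate 2 below the other high libraries and far above every low one. XTH23 was at 110, 30.6, 37.8 and 42.8 against 0.39, 0.21, 0.32 and 0.15 TPM (log2 change 5.29, SE 0.32, adjusted p = 1.7e-07), and its high replicate 1 stood well above the others. The members that fell were XTH31 and XTH32, of the subgroup for which xyloglucan cleavage has been described. XTH31 was at 2.82, 8.34, 8.66 and 5.49 at high and 97.4, 103, 153 and 74.7 TPM at low humidity (log2 change -3.93, SE 0.31, adjusted p = 3.2e-06). XTH32 was at 36.5, 37.2, 38.3 and 48.2 against 121, 106, 127 and 92 TPM (log2 change -1.45, SE 0.12, adjusted p = 1.5e-06). Reads shared by near-identical members may be divided unevenly between them, so single values of close pairs are less certain than the family's sum.

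Expansins went mostly the other way. Of 19 tested members 3 were higher (EXLA1, EXLA2 and EXPA6) and 11 lower, with a median of -0.85. EXPA16, an alpha-expansin, had the largest fall of the 17368 tested genes: 1.58, 1.34, 0.48 and 1.54 at high and 51.7, 63, 49 and 51.5 TPM at low humidity (log2 change -4.64, SE 0.34, adjusted p = 1.5e-06). EXPA15 was at 1.25, 0.99, 1.1 and 1.49 against 8.83, 8.41, 11.2 and 8.26 TPM (log2 change -2.20, SE 0.12, adjusted p = 2.0e-08). EXPA4 was at 10.5, 11.7, 9.5 and 12.3 against 43.8, 41.7, 35.9 and 35 TPM (log2 change -1.74, SE 0.12, adjusted p = 1.6e-07). No high library reached a low one for these members, but they were named for the size of the change or a small adjusted p. The family's summed level was 821 to 1134 TPM at high and 556 to 674 TPM at low humidity. Of these sums EXLA1 alone made up 403 to 688 TPM at high and 2.17 to 5.01 TPM at low humidity. In the EXORDIUM family 4 of 6 tested members rose (PHI-1, EXO, EXL3 and EXL5) and none fell, with a median of 5.14. EXO itself was at 693, 404, 626 and 540.5 at high and 4.71, 5.29, 4.82 and 4.81 TPM at low humidity (log2 change 6.56, adjusted p = 8.8e-08). EXL3 was at 390.1, 366, 432 and 334 against 10.4, 7.63, 11.5 and 7.17 TPM (log2 change 5.25, adjusted p = 5.3e-11). EXL5 was at 133, 116, 143 and 97.7 against 1.72, 3.16, 2.95 and 3.33 TPM (log2 change 5.04, adjusted p = 4.2e-10).

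Cellulose synthase genes split by wall type. All 5 members that rose, CESA1, CESA2, CESA3, CESA5 and CESA6, are subunits of the complex of growing, primary walls. CESA6 was at 263, 218, 268 and 238 at high and 98, 92, 84.7 and 103 TPM at low humidity (log2 change 1.37, SE 0.09, adjusted p = 1.4e-07). CESA3 was at 369, 259, 309 and 285 against 169, 117, 115 and 128 TPM (log2 change 1.21, SE 0.13, adjusted p = 1.6e-05). CESA1 was at 273, 223, 249 and 226 against 151, 125, 119 and 127 TPM (log2 change 0.89, SE 0.10, adjusted p = 1.3e-05). None of the 3 overlapped between the groups, but they were named for a small adjusted p, so this adds no support. CESA4, CESA7 and CESA8, the subunits of the secondary walls of xylem, had log2 changes of -0.07, -0.34 and -0.35 and were not called; without low replicate 4, CESA7 was called lower (-0.45, adjusted p = 0.047). Arabinogalactan and fasciclin-like proteins, heavily glycosylated proteins of the cell surface, were grouped by the table's own descriptions, a grouping chosen after the values were seen. Of 35 tested 24 were higher and 2 lower, with a median of 1.22. The count of higher members was 24 or 25 under every alternative; that of lower members was 1 or 2. AGP15 was at 1859, 1503, 1765 and 1479.7 at high and 133, 222, 157 and 291 TPM at low humidity (log2 change 3.09, SE 0.23, adjusted p = 1.0e-06). FLA13 was at 1101, 903, 1021 and 853 against 93.4, 94.7, 119 and 93 TPM (log2 change 3.26, SE 0.12, adjusted p = 9.5e-10). AGP21 was at 858, 740.2, 967 and 891 against 71.5, 68.6, 97.4 and 71.6 TPM (log2 change 3.47, SE 0.14, adjusted p = 1.4e-09). Pectin lyase-like and polygalacturonase proteins, which cut pectin and were grouped in the same way, showed no common direction, with 10 of 40 higher and 13 lower. Among the latter, AT1G48100 was at 4.79, 5.54, 4.2 and 5.31 against 32.6, 68.7, 63.7 and 48.9 TPM (log2 change -3.14, adjusted p = 2.9e-07).

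**Figure D3:**
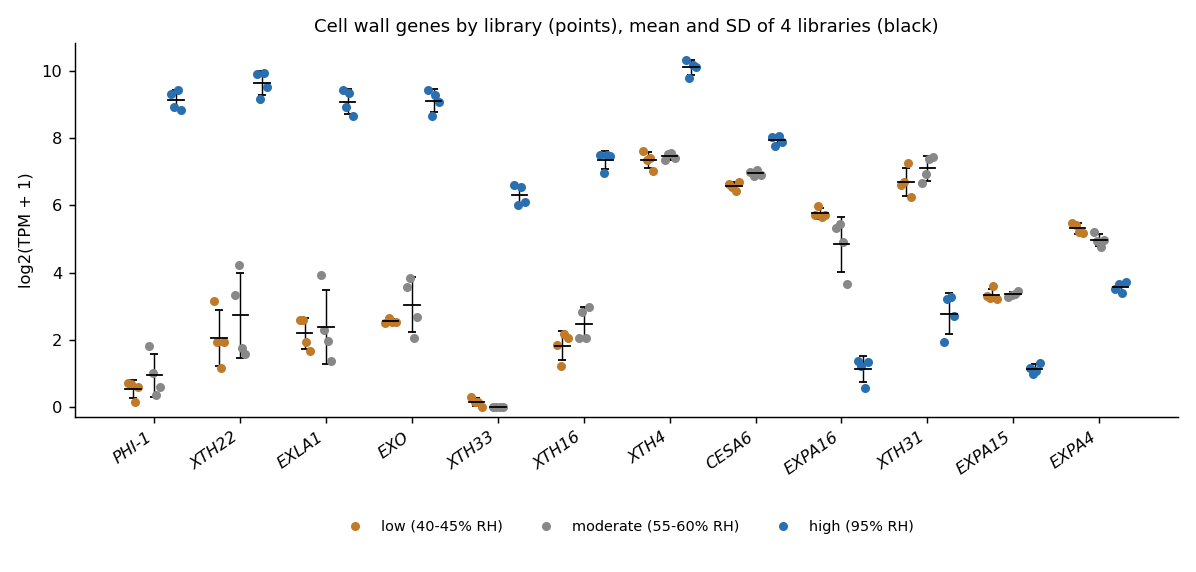
Level on the log2(TPM + 1) scale (vertical axis) of 12 wall genes in the 4 low, 4 moderate and 4 high libraries (points), with the mean and SD of each group in black. PHI-1, XTH22, EXLA1, EXO, XTH33, XTH16, XTH4 and CESA6 are higher and EXPA16, XTH31, EXPA15 and EXPA4 lower in all 4 high libraries than in any low library.

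The ABA signalling chain changed at several of its steps. Receptors rose: 5 of 9 tested were higher and 1 lower, with a median of 1.11 (5 and 1 under every alternative). PYL4 was at 309.6, 217, 216 and 233 at high and 10.6, 8.49, 13.2 and 10.8 TPM at low humidity (log2 change 4.38, SE 0.16, adjusted p = 9.5e-10). PYL5 was at 109.6, 33.1, 39.2 and 44.1 against 1.47, 0.7, 0.76 and 1.42 TPM (log2 change 4.64, SE 0.31, adjusted p = 4.5e-07). Both were high in every humid library, with high replicate 1 at the top, and low at moderate as at low humidity (10.5, 11.1, 10.9 and 16.2 TPM for PYL4 and 0.95, 1.03, 0.6 and 1.59 TPM for PYL5). PYR1 was at 98.7, 76.4, 83.1 and 66.8 against 24.4, 26.4, 28 and 30.3 TPM (log2 change 1.53, SE 0.12, adjusted p = 1.0e-06). PYL1 was at 52, 57.7, 53.6 and 53.4 against 22.3, 22.6, 25.3 and 28.1 TPM (log2 change 1.11, SE 0.12, adjusted p = 1.2e-05). PYL6 also rose, to a low level (5.13, 1.33, 2.1 and 2.06 against 0.08, 0, 0.11 and 0.08 TPM, log2 change 1.68, adjusted p = 1.5e-04). PYL6 passed the filter only through the high libraries, so its rise was fixed in advance and adds no support to the count of 5. PYL7 was the only member to fall, with 33.7, 25, 29 and 28.1 at high and 70.2, 75.9, 34.8 and 57 TPM at low humidity (log2 change -0.96, adjusted p = 0.014). PYL8, PYL9 and PYL2 were not called.

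The phosphatases fell throughout. All 7 tested clade A PP2C genes were lower at high humidity, with a median of -1.91. PP2CA (log2 change -1.04, adjusted p = 0.025) was the least certain and lost its call without high replicate 2 (adjusted p = 0.052), high replicate 4 (0.070), low replicate 2 (0.067) or low replicate 4 (0.068), which left 6. ABI1 was at 8.25, 10.1, 8.04 and 9.05 at high and 40.7, 53.8, 34.7 and 49.9 TPM at low humidity (log2 change -2.20, SE 0.14, adjusted p = 1.1e-07). HAB1 was at 31.8, 39.9, 35.2 and 29.8 against 61.9, 73.1, 49.9 and 66.8 TPM (log2 change -0.86, SE 0.12, adjusted p = 1.9e-04). ABI2 was at 0.61, 3.63, 1.1 and 0.44 against 10.2, 12.6, 4.95 and 4.58 TPM (log2 change -1.95, SE 0.38, adjusted p = 0.0026), where high replicate 2 lay closest to the low libraries. HAI2, one of the highly ABA-induced members, was at 0.09, 0.38, 0.1 and 0.06 against 2.22, 5.88, 1.72 and 4.78 TPM (log2 change -1.91, SE 0.31, adjusted p = 4.6e-04); low replicates 2 and 4 had more of it than low replicates 1 and 3. The sum of the list was 96.4 to 126 TPM at high and 181 to 335 TPM at low humidity, while the sum of the receptors was 461 to 671 against 147 to 195 TPM. Of 8 tested kinases 1 was called, close to the 12.4% of all genes that were higher: OST1, the SnRK2 of guard cells (25.2, 24.8, 28.2 and 22.7 at high and 21, 15, 16 and 14.8 TPM at low humidity, log2 change 0.58, SE 0.12, adjusted p = 0.0025). Without low replicate 1, SNRK2.3 was called as well (log2 fold change 0.42, adjusted p = 0.048), as it was after median-of-ratios scaling.

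The list of ABA transcription factors also held AFP proteins, which are repressors of the response. Of its 12 tested members 10 fell, with a median of -1.18 (9 or 10 over the alternatives). ABF3, which binds ABA-responsive promoter elements, was at 41.9, 58.4, 51 and 42.1 at high and 109, 127, 98.9 and 105 TPM at low humidity (log2 change -1.18, SE 0.13, adjusted p = 1.4e-05). ABF2 was at 19.1, 24.3, 23.9 and 18.7 against 52.5, 57.9, 42.9 and 46.9 TPM (log2 change -1.18, SE 0.13, adjusted p = 2.0e-05). The homeodomain factors HB12 and HB7, both ABA-induced, were also lower. HB12 was at 20.4, 23.2, 23.2 and 24.9 against 110, 147, 81 and 150.1 TPM (log2 change -2.32, SE 0.19, adjusted p = 1.1e-06). HB7 was at 5.35, 7.2, 6.62 and 5.51 against 34.6, 35, 21.2 and 24.9 TPM (log2 change -2.04, SE 0.18, adjusted p = 1.8e-06). None of the 4 overlapped between the groups, but they were named for the smallest adjusted p of their list, so this adds no support. AFP3, of a family that binds the factor ABI5 and dampens the response, was at 1.63, 1.42, 1.89 and 0.83 against 12.2, 29, 10.7 and 23.8 TPM (log2 change -2.93, SE 0.38, adjusted p = 1.6e-04). Its relative TMAC2 was the only member to rise, from 2.38, 1.7, 1.63 and 2.29 TPM at low to 25.7, 6.5, 9.76 and 11.9 TPM at high humidity (log2 change 2.11, SE 0.29, adjusted p = 1.5e-04).

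Genes of ABA synthesis and breakdown changed in opposite directions where they changed. NCED3, the drought-responsive enzyme of the committed step, was low everywhere: 1.41, 0.72, 0.74 and 0.69 at high and 2.38, 6.36, 2.47 and 3.32 TPM at low humidity (log2 change -1.23, SE 0.26, adjusted p = 0.0037). AAO3, which catalyses the last step, was at 6.46, 5.86, 5.74 and 5.74 against 10.7, 8.5, 6.99 and 8.66 TPM (log2 change -0.47, SE 0.12, adjusted p = 0.0099). ABA1, the zeaxanthin epoxidase, was at 429, 541, 526 and 426 against 683, 631, 573 and 595 TPM (log2 change -0.37, SE 0.10, adjusted p = 0.017). The call of ABA1 was lost without high replicate 1 (adjusted p = 0.059) or high replicate 4 (0.055). ABA2, ABA3 and ABA4 were not called (log2 changes -0.20, -0.35 and -0.08), although ABA3 passed after median-of-ratios scaling (-0.32, adjusted p = 0.021), at a pseudocount of 0.1 (-0.47, adjusted p = 0.046) and without low replicate 2 (-0.41, adjusted p = 0.040). On the side of breakdown, CYP707A1 was at 5.13, 4.31, 5.29 and 3.43 at high and 1.01, 1.42, 0.82 and 1.32 TPM at low humidity (log2 change 1.37, SE 0.19, adjusted p = 1.6e-04). UGT71C5, which conjugates ABA to glucose, was at 13.8, 11.6, 12.7 and 11.7 against 8.41, 10.3, 8.9 and 8.87 TPM (log2 change 0.41, SE 0.10, adjusted p = 0.0064). CYP707A2, CYP707A3, CYP707A4 and BGLU18, a glucosidase that frees ABA from its conjugate, were not called. CYP707A3 had 7.72, 3.52, 4.22 and 8.62 at high and 6.86, 4.93, 3.06 and 1.61 TPM at low humidity and BGLU18 25.3, 16.9, 18.6 and 25.1 against 25.1, 45.2, 21.1 and 76.8 TPM. The groups overlapped for both.

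**Figure D4:**
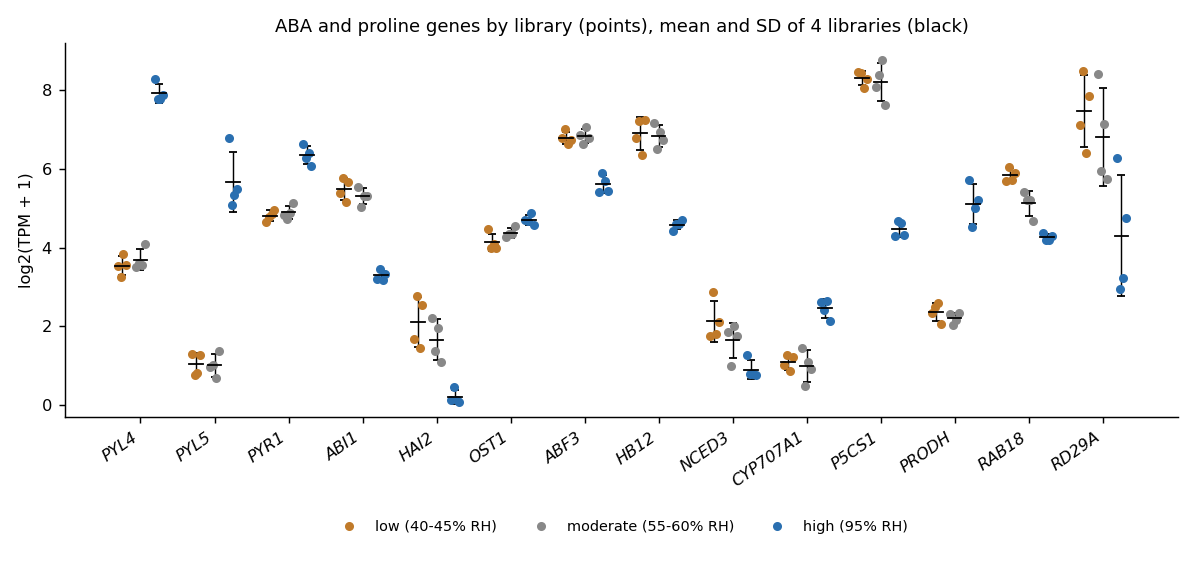
Level on the log2(TPM + 1) scale (vertical axis) of 14 ABA and proline genes in the 4 low, 4 moderate and 4 high libraries (points), with the mean and SD of each group in black. PYL4, PYL5, PYR1, OST1, CYP707A1 and PRODH are higher and ABI1, HAI2, ABF3, HB12, NCED3, P5CS1, RAB18 and RD29A lower in every high library than in any low one.

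Proline accumulates in leaves short of water and is broken down when water returns. P5CS1, the stress-responsive enzyme of the first step of its synthesis, was at 18.5, 24.6, 23.6 and 18.9 at high and 352, 344, 265 and 308 TPM at low humidity (log2 change -3.83, SE 0.20, adjusted p = 3.4e-08). PRODH, the mitochondrial dehydrogenase that starts its breakdown, was at 52, 21.9, 31.2 and 35.9 against 4.05, 4.62, 5.07 and 3.2 TPM (log2 change 2.74, SE 0.21, adjusted p = 5.3e-07). P5CS1 and PRODH thus differed in opposite directions after 1 h, each without overlap. P5CS2 was at 56.8, 63.6, 65.6 and 64.7 against 115, 106, 116 and 101 TPM (log2 change -0.79, adjusted p = 2.2e-05). P5CR, the second step, was at 23.6, 19.9, 19.9 and 23.1 against 34, 33.5, 36.4 and 34.9 TPM (log2 change -0.66, adjusted p = 1.9e-04). P5CDH, which follows PRODH in the breakdown, fell rather than rose, with 16.9, 18.6, 17.1 and 20 at high and 32.1, 25.9, 26.5 and 24.5 TPM at low humidity (log2 change -0.56, adjusted p = 0.0013). The transporter gene PROT3 was at 2.45, 1.82, 2.53 and 5.11 against 25.7, 28.5, 20.1 and 32 TPM (log2 change -2.84, SE 0.26, adjusted p = 6.0e-06). BZIP53, a factor that activates PRODH, was at 86.9, 53.7, 60.1 and 67.1 against 18.7, 18, 10.5 and 20.7 TPM (log2 change 1.93, SE 0.24, adjusted p = 6.2e-05). BZIP2, BZIP11 and PROT1 rose by 0.50, 0.46 and 0.40 and BZIP1, BZIP44, PROT2 and AT5G38710 were not called. In all, 5 of 14 members of the proline list were higher and 5 lower (median 0.00); without high replicate 2, low replicate 2 or low replicate 4 the higher count was 3, as PROT1 and either BZIP2 or BZIP11 lost their calls.

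Of 16 tested dehydration-protection genes 7 fell and none rose, with a median of -1.04 and 5 to 9 falls over the alternatives. RAB18, a dehydrin, was at 19.8, 17.3, 17.4 and 18.6 at high and 50.7, 65.5, 51.6 and 59 TPM at low humidity (log2 change -1.58, SE 0.14, adjusted p = 2.5e-06). RD20, a caleosin, was at 86.7, 70.5, 64.6 and 66.6 against 326, 737, 255 and 1003 TPM (log2 change -2.78, SE 0.46, adjusted p = 0.0013). RD29A, a widely used marker of drought, was at 76.9, 6.74, 8.43 and 25.8 against 137, 360.2, 83.6 and 232 TPM (log2 change -3.17, SE 0.85, adjusted p = 0.023). Its call was lost without high replicate 2 (adjusted p = 0.061), high replicate 3 (0.067), low replicate 2 (0.064) or low replicate 4 (0.058); high replicate 1 came close to low replicate 3. LEA4-5, a late embryogenesis abundant protein outside the list, was at 0.85, 0.42, 0.54 and 0.22 against 9.73, 16.1, 10.3 and 12.7 TPM (log2 change -3.12, SE 0.22, adjusted p = 3.4e-07). COR15A was not called, with 249, 113, 166 and 149.9 at high and 168, 670.2, 318 and 659.6 TPM at low humidity, and was called without low replicate 1 (-1.67, adjusted p = 0.030). In the low group, replicates 2 and 4 held more of these transcripts than replicates 1 and 3: the summed list was 5897 and 5473 TPM in the former and 3202 and 2700.3 TPM in the latter, against 1764 to 3157 TPM at high humidity. GOLS2, a galactinol synthase, was at 2.11, 5.32, 4.2 and 1.41 against 42.1, 71.6, 19.6 and 65.9 TPM (log2 change -3.52, SE 0.53, adjusted p = 6.9e-04). RS5, a raffinose synthase, was at 16.2, 14.7, 14.7 and 15.2 against 58.6, 79.9, 49.7 and 79.4 TPM (log2 change -2.04, SE 0.21, adjusted p = 1.4e-05). GOLS1 and GOLS3 were not called, although GOLS1 was called without low replicate 1 (-1.48, adjusted p = 0.036).

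Promoter sequences are shown for PRODH and for a pair of the most strongly lowered genes, because each carries an element with a described link to water status or ABA. ACTCAT is the element through which PRODH is known to respond, and ACGTG is the core of the ABA-responsive element. The windows are the 250 bases before the annotated start of each gene in RefSeq's TAIR10.1 sequence, written 5′ to 3′ on the gene's strand. The expression table has no coordinates and its build is given as TAIR10, so genes were linked by locus code alone. Capitals mark the element on either strand.
PRODH, chr3:12451557-12451806, minus strand: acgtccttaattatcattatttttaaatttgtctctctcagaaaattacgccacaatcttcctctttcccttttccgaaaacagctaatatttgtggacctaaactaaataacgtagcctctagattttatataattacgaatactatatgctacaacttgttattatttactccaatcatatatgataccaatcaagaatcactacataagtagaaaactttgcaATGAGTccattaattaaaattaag
PUB19, chr1:22198016-22198265, plus strand: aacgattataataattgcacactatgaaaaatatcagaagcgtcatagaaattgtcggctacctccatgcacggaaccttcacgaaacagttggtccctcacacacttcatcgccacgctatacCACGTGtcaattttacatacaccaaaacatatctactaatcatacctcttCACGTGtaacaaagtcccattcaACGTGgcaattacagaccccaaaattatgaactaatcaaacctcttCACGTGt
LEA4-5, chr5:2090431-2090680, minus strand: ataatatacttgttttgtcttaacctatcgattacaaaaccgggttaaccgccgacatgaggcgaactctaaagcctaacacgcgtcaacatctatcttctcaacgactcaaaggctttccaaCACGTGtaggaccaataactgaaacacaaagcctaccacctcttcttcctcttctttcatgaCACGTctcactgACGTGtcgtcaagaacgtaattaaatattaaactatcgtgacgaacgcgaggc
PRODH has 1 match of ACTCAT, read as ATGAGT because it lies on the other strand. The other windows were searched for ACGTG. PUB19, a U-box ubiquitin ligase that restrains drought responses, has 7 matches at 4 places, since each of its 3 CACGTG palindromes counts on both strands. Its level was 0.51, 0.63, 0.26 and 0.4 at high and 7.69, 23.7, 5.58 and 23.1 TPM at low humidity (log2 change -3.23, SE 0.51, adjusted p = 8.2e-04). LEA4-5 has 4 matches at 3 places, 1 of them a palindrome. Over all 16646 tested genes with such a window, 23.4% held ACGTG on either strand. The share was 37.9% among the 66 windows of genes at least 4-fold lower at high humidity, 16.9% among the 207 of genes at least 4-fold higher, and 22.3% among genes not called. For ACTCAT the share was 11.8% over all, 15.9% in the strongly raised and 18.2% in the strongly lowered genes. For CGCG, the core bound by calmodulin-binding CAMTA factors, it was 10.7%, 14.5% and 10.6%. These shares describe letters in a short window and were not tested.

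Genes of touch and calcium signalling were higher in 8 and lower in 4 of 22 tested (36.4% and 18.2%, against 12.4% and 11.3% over all tested genes). The median was 0.24, and 6 to 10 were higher over the alternatives. CML24, a calmodulin-like protein first found as touch gene TCH2, was at 263, 199.7, 251 and 212 at high and 38.7, 48.7, 32.9 and 37.6 TPM at low humidity (log2 change 2.53, SE 0.14, adjusted p = 2.3e-08). Its near relative CML23 was at 7.55, 5.05, 7.23 and 6.94 against 3.44, 1.75, 1.59 and 2.44 TPM (log2 change 1.24, SE 0.20, adjusted p = 4.0e-04). CNGC2, a calcium-permeable channel, was at 277, 226, 223 and 191 against 96.8, 118, 108 and 121 TPM (log2 change 1.03, SE 0.12, adjusted p = 2.7e-05). CNGC4 fell (23.8, 33.4, 33.4 and 29.1 against 42.4, 42.1, 41.8 and 35.2 TPM, log2 change -0.43, adjusted p = 0.012). AT3G16940, described as a calmodulin-binding transcription activator, fell from 43.8, 36.5, 36 and 37.4 TPM at low to 15.4, 18.6, 17.3 and 16 TPM at high humidity (log2 change -1.15, SE 0.10, adjusted p = 1.7e-06). Calcium-dependent protein kinases, grouped by description after the values were seen, were higher in 8 of 22 and lower in 2. CPK5 was at 102, 79.5, 82.2 and 83.5 against 52.5, 35.1, 29.5 and 34 TPM (log2 change 1.20, adjusted p = 7.4e-05). CPK1 was at 86.2, 50.6, 63.8 and 63.1 against 29.1, 27.1, 20.5 and 31.4 TPM (log2 change 1.25, adjusted p = 8.9e-05).

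Water channels changed in both directions. Of 17 tested aquaporins 5 were higher and 7 lower (29.4% and 41.2%, against 12.4% and 11.3% over all tested genes), with a median of -0.24. PIP2;2 and PIP2;3, close paralogs of the plasma membrane, fell. PIP2;2 was at 113, 129, 133 and 119.5 against 421, 549.7, 424 and 384 TPM (log2 change -1.83, SE 0.18, adjusted p = 8.3e-06). PIP2;3 was at 83, 71.7, 82.6 and 82.8 against 389, 575, 366 and 372 TPM (log2 change -2.37, SE 0.29, adjusted p = 8.5e-05). PIP2;7 rose, from 336, 347, 425 and 337 TPM at low to 686, 766, 870.1 and 836 TPM at high humidity (log2 change 1.13, SE 0.10, adjusted p = 1.7e-06). PIP1;5 also rose, from 198, 201, 214 and 193 to 399, 487, 452 and 358 TPM (log2 change 1.06, SE 0.10, adjusted p = 5.8e-06). The plasma membrane channel with the most transcripts, PIP2;1, was at 1902, 2598, 2431 and 2104 against 2962, 3455, 3207 and 2961 TPM (log2 change -0.49, adjusted p = 0.0037). In the vacuolar membrane TIP2;1 rose (1381, 1459.5, 1742 and 1609 against 789, 931, 1087 and 778 TPM, log2 change 0.80, adjusted p = 1.9e-04). No high library overlapped a low one for these 6 genes, but they were named for a small adjusted p or after their values were seen.

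Among 14 tested genes of guard cell transport 1 rose and 3 fell, with a median of -0.09. These are 7.14% and 21.4%, against 12.4% and 11.3% over all tested genes. The 1 that rose was SLAH3, a slow anion channel also found outside guard cells, at 217, 118, 167 and 130.4 at high and 16.4, 19.7, 12.2 and 19.1 TPM at low humidity (log2 change 3.14, SE 0.20, adjusted p = 1.5e-07). AHA1, the proton pump that drives stomatal opening, was at 165, 173, 168 and 169 against 245, 227, 216 and 211 TPM (log2 change -0.41, SE 0.08, adjusted p = 0.0022). FAMA, a factor of guard cell identity, was at 5.26, 7.41, 6.87 and 8.33 against 13.4, 8.27, 12.3 and 13.3 TPM (log2 change -0.68, SE 0.15, adjusted p = 0.0049), with high replicate 4 above low replicate 2. ALMT12, a rapid anion channel, was at 4.03, 3.79, 3.79 and 5.78 against 6.81, 7.14, 6.79 and 6.34 TPM (log2 change -0.55, SE 0.16, adjusted p = 0.023), and lost its call without high replicate 1, 2 or 3 or low replicate 2 (adjusted p = 0.058 to 0.067). SLAC1 and KAT1, the main slow anion and inward potassium channels of guard cells, were not called (log2 changes -0.25 and 0.30).

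Of 18 tested cuticle genes 6 fell and 3 rose (median -0.21). WSD1, which makes wax esters, was at 0.59, 0.37, 0.96 and 1.51 at high and 15.9, 11.1, 10.4 and 8.02 TPM at low humidity (log2 change -2.73, SE 0.28, adjusted p = 1.1e-05). CER1, of alkane synthesis, was at 14.4, 13.4, 18 and 20.9 against 81.7, 64.6, 53.1 and 63.5 TPM (log2 change -1.92, SE 0.47, adjusted p = 0.012). LACS2, of cutin synthesis, was at 11.5, 14.8, 14.1 and 15.1 against 37.4, 29.4, 29.6 and 23.6 TPM (log2 change -1.05, SE 0.13, adjusted p = 3.6e-05). CER5, a wax exporter, was at 88.3, 112, 91.9 and 90.8 against 227, 191, 167 and 163 TPM (log2 change -0.95, SE 0.12, adjusted p = 4.6e-05). CER3, which works with CER1 in alkane synthesis, rose instead, from 52.5, 49.7, 45.6 and 44.4 to 80.9, 104, 107 and 67.7 TPM (log2 change 0.87, SE 0.14, adjusted p = 3.4e-04). The partners of the alkane-forming step therefore changed in opposite directions. Neither overlapped between the groups, but CER3 was named for a small adjusted p and CER1 after its values were seen.

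**Figure D5:**
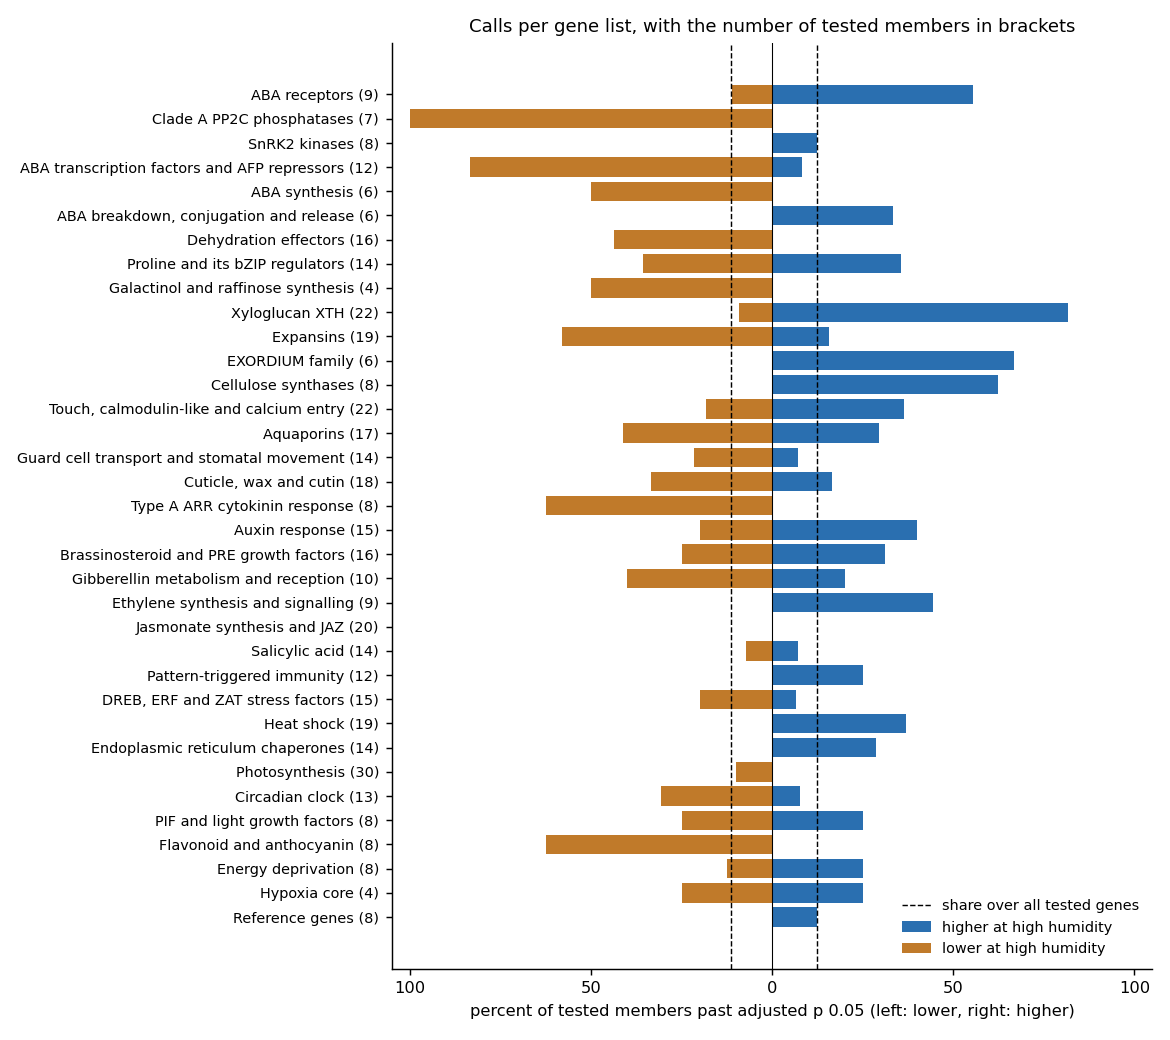
Percent of the tested members of each gene list that were higher (blue, to the right) or lower (orange, to the left) at high humidity, with the number of tested members in brackets. Dashed lines mark the shares over all tested genes, 12.4% and 11.3%; the XTH list reaches 18 of 22 higher and the clade A PP2C list 7 of 7 lower, while none of 20 jasmonate genes was called.

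Lists of the other hormones held calls in both directions, in 1 or, for jasmonate, in none. Type A response regulators, which cytokinin induces and which damp its signal, were lower in 5 of 8 tested and higher in none (median -0.82; 5 under every alternative). ARR15 was at 3.79, 5.89, 6.98 and 6.1 at high and 31.8, 14.5, 18 and 17.6 TPM at low humidity (log2 change -1.65, SE 0.23, adjusted p = 1.7e-04). ARR8 was at 6.69, 11.8, 10.2 and 9.16 against 32.9, 23.5, 22.7 and 22.9 TPM (log2 change -1.35, SE 0.16, adjusted p = 3.9e-05). Auxin-responsive genes split, with 6 of 15 higher and 3 lower. IAA19 was at 11.2, 9.96, 9.08 and 8.96 against 3.49, 3.9, 2.96 and 4.86 TPM (log2 change 1.18, adjusted p = 4.8e-05). IAA5 was at 1.06, 0.74, 1.35 and 1.61 against 4.14, 3.82, 4.22 and 4.28 TPM (log2 change -1.24, adjusted p = 1.2e-04). Both are early Aux/IAA repressor genes. In the gibberellin list, GA3OX1 and GA20OX1, enzymes of synthesis, and GA2OX1, an enzyme of inactivation, all fell (log2 fold changes -1.40, -1.38 and -1.75). The DELLA repressor gene GAI rose from 9.1, 7.92, 8.78 and 9.96 TPM to 28.1, 24.4, 27.2 and 22.5 TPM (log2 change 1.42, SE 0.11, adjusted p = 7.2e-07). GAI and RGA made up the 2 higher of 10 tested, and 4 were lower. The count of higher genes was 1 without high replicate 2, high replicate 3, low replicate 1 or low replicate 4.

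BRI1, the brassinosteroid receptor, was at 58.5, 54, 58.7 and 50.2 at high and 19.3, 16.1, 17.1 and 17.4 TPM at low humidity (log2 change 1.61, SE 0.10, adjusted p = 9.7e-08). DWF4, an enzyme of brassinosteroid synthesis, was at 9.48, 9.57, 11.3 and 9.7 against 7.63, 5.63, 5.32 and 5.15 TPM (log2 change 0.68, adjusted p = 0.001). PRE1, a small helix-loop-helix factor that promotes elongation, fell, with 0.67, 3.37, 3.51 and 2.26 against 18.8, 15.1, 15.6 and 18.2 TPM (log2 change -2.47, SE 0.29, adjusted p = 5.5e-05). Its relative BNQ2 also fell (0.95, 1.55, 0.91 and 2.47 against 9.75, 9.28, 7.04 and 6.39 TPM, log2 change -1.91, adjusted p = 5.3e-06). The list held 5 higher and 4 lower of 16 (2 lower without high replicate 3, high replicate 4 or low replicate 2). In the ethylene list 4 of 9 were higher and none lower. ACS11, an isoform of the enzyme that makes the ethylene precursor, was at 6.8, 3.14, 2.94 and 6.01 TPM at high humidity and at 0.07, 0, 0 and 0.04 TPM at low humidity (log2 change 2.41, adjusted p = 2.0e-06). ACO4, an oxidase of the last step, was at 119, 91.2, 87.9 and 100.3 against 69.6, 55.1, 59.4 and 72.4 TPM (log2 change 0.63, adjusted p = 0.0023). ACS6 and ACS8, further isoforms, rose in the full set (log2 fold changes 0.94 and 1.67), but neither was called without high replicate 1, high replicate 4, low replicate 2, low replicate 3 or low replicate 4, which left 2 higher genes; 1 gene was lower without high replicate 1 or low replicate 4.

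None of the 20 tested genes of jasmonate synthesis and JAZ repressors was called by limma (3 had an unadjusted p under 0.05), and 1 library stood far from the rest. The summed list was 5674 TPM in low replicate 4, 556 to 1661 TPM in the other low libraries and 532 to 1141 TPM in the high libraries. OPR3, an enzyme of the late part of jasmonate synthesis, was at 102, 16.9, 32.5 and 61.7 at high and 14.9, 85.7, 14.4 and 666 TPM at low humidity (log2 change -0.47, adjusted p = 0.823). MYC2, the central factor of the jasmonate response, was at 13.3, 3.6, 6.49 and 9.9 against 8.8, 45.4, 8.36 and 117 TPM (log2 change -1.64, adjusted p = 0.199). AOC2, an allene oxide cyclase, was at 30.9, 9.25, 15.5 and 28.4 against 51.4, 116, 23.2 and 551 TPM (log2 change -2.25, adjusted p = 0.097). For all 3 genes the groups overlapped and the low libraries spread more widely than the high ones. Without low replicate 3, 2 members of the list were called lower. The ABA-related genes HAI1, AFP1, RD26 and RD20 were also highest in low replicates 2 and 4. HAI1 was at 5.98, 15.2, 4.61 and 12.5 TPM at low and 1.92, 1.12, 1.09 and 1.58 TPM at high humidity (log2 change -2.00, SE 0.41, adjusted p = 0.0041). The part of this variation in their changes was not tested beyond leaving each library out.

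Of 14 tested salicylic acid genes 1 rose and 1 fell (7.14% each, below the 12.4% and 11.3% over all tested genes). NPR3, a salicylic acid receptor, was at 26.8, 18.3, 16.7 and 21.3 at high and 14.5, 7.19, 5.14 and 9.03 TPM at low humidity (log2 change 1.19, SE 0.30, adjusted p = 0.014). PR5, a pathogenesis-related protein, was at 48.1, 40.9, 32.5 and 55.9 against 61.1, 70.8, 86.8 and 81.3 TPM (log2 change -0.76, SE 0.20, adjusted p = 0.014). The higher count was 2 without high replicate 3, low replicate 1 or low replicate 4, and the lower count 2 without low replicate 3. Over all alternatives 1 or 2 were higher and 1 to 3 lower. ICS1 was called lower after median-of-ratios scaling (-0.48, adjusted p = 0.041, limma) and with the replicate block (-0.51, adjusted p = 0.045). SAG101 was called higher in the same settings (0.53, adjusted p = 0.023, and 0.48, adjusted p = 0.039). Among 12 genes of pattern-triggered immunity 3 rose (2 to 5 over the alternatives) and none fell. WRKY22 and WRKY29, factors downstream of pattern receptors, rose. WRKY22 was at 12.9, 5.08, 6.75 and 6.89 against 1.83, 3.21, 2.25 and 3.01 TPM (log2 change 1.26, SE 0.24, adjusted p = 0.0015). WRKY29 was at 3.84, 1.54, 2.32 and 2.49 against 0.57, 0.63, 0.86 and 0.68 TPM (log2 change 1.04, SE 0.20, adjusted p = 0.0019). The rise of EFR, the receptor of a bacterial elongation factor, lost its call without high replicate 1, high replicate 4, low replicate 2 or low replicate 3 (adjusted p = 0.071 to 0.126). WRKY18 had 307, 40.2, 87.4 and 136 at high and 14.2, 20.9, 8.62 and 65.7 TPM at low humidity and narrowly missed the threshold (log2 change 2.37, adjusted p = 0.052); it passed without high replicate 2 (2.85, adjusted p = 0.029) or low replicate 4 (2.92, adjusted p = 0.022).

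Of 15 tested DREB, ERF and ZAT stress factors 3 fell and 1 rose (20% and 6.67%, against 11.3% and 12.4% over all tested genes). The higher count was 2 without low replicate 1 or low replicate 4. ERF53, an AP2/ERF factor of the dehydration response, was at 0.23, 0.05, 0 and 0 at high and 22.7, 36.8, 15.4 and 9.89 TPM at low humidity (log2 change -4.23, SE 0.46, adjusted p = 4.2e-05). ERF8 was at 5.47, 6.81, 4.42 and 4.56 against 19.6, 30, 17.4 and 14.8 TPM (log2 change -1.73, SE 0.21, adjusted p = 4.4e-05). AZF1, a zinc-finger repressor, was the 1 that rose, to 11.2, 4.63, 4.02 and 4.36 TPM from 2.43, 2.96, 1.32 and 1.24 TPM (log2 change 1.18, SE 0.28, adjusted p = 0.0081), with high replicate 1 above the others. In the heat shock list 7 of 19 tested rose and none fell (5 to 9 rises over the alternatives). Among all 96 tested proteins described as heat shock or HSP20 proteins, a grouping chosen after the values were seen, 25 were higher and 5 lower. HSFC1 had the largest fall (-3.16). HSFA3, a heat shock factor also tied to drought signalling, was at 4.7, 2.21, 3.72 and 3.93 against 0.17, 0.56, 0.35 and 0.55 TPM (log2 change 1.70, SE 0.18, adjusted p = 9.3e-06). HSP70 was at 27.6, 24.1, 23 and 24.1 against 11.9, 10.4, 10.7 and 9.28 TPM (log2 change 1.15, SE 0.21, adjusted p = 0.0014). HSFA2, the factor of acquired heat tolerance, was at 23.2, 22.1, 17.1 and 18.8 against 14.3, 10.1, 9.27 and 6.08 TPM (log2 change 1.00, adjusted p = 0.039) and lost its call when any single library other than low replicate 1 was left out (adjusted p = 0.058 to 0.104). In the endoplasmic reticulum list 4 of 14 rose and none fell; IRE1A and BZIP60, the sensor and the factor of the unfolded protein response, were among them. IRE1A was at 29.3, 23.4, 23.4 and 21.2 against 16.7, 15.8, 11.2 and 16.9 TPM (log2 change 0.65, adjusted p = 0.0024). BZIP60 was at 56, 45.8, 48.7 and 49.9 against 36, 34.6, 25.9 and 31.3 TPM (log2 change 0.64, adjusted p = 0.0012).

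Calls of photosynthetic genes depended on single libraries and on scaling. Of 30 tested 3 were lower and none higher, with a median of -0.08; the lower count was 11 without low replicate 1, 1 without high replicate 2, high replicate 3, low replicate 2, low replicate 3 or low replicate 4, 0 after median-of-ratios scaling, and 12 with that scaling and without low replicate 1. LHB1B2, an antenna protein of photosystem II, was at 7350.2, 7300.1, 6162 and 6878 at high and 7728, 10587, 10314 and 10483 TPM at low humidity (log2 change -0.49, SE 0.12, adjusted p = 0.0094), and low replicate 1 lay closest to the high libraries. Among 13 tested clock genes 4 were lower and 1 higher (30.8% and 7.69%, against 11.3% and 12.4% over all tested genes). RVE1, a morning-phased factor, was at 17.7, 24.6, 21.7 and 17.6 against 60.4, 49.3, 47.1 and 45 TPM (log2 change -1.27, SE 0.13, adjusted p = 7.9e-06). CHE, a repressor of CCA1, was at 28.5, 21.3, 15.6 and 18.1 against 6.05, 7.6, 6.65 and 11.2 TPM (adjusted p = 5.3e-04). The lower count was 1 without high replicate 1 or high replicate 4 and 2 without low replicate 2, and the higher count 2 without low replicate 1. PIF7, a phytochrome-interacting growth factor, was at 116, 80.6, 105 and 90.5 against 48.4, 51, 51.2 and 49.7 TPM (log2 change 0.94, SE 0.13, adjusted p = 1.3e-04). PIF3 fell (2.58, 2.36, 2.39 and 2.27 against 6.55, 5.77, 3.76 and 4.11 TPM, log2 change -0.81, adjusted p = 0.0041). Of 8 tested genes of this list 2 were higher and 2 lower (25% each, against 12.4% and 11.3% over all tested genes). The lower count was 1 without high replicate 1, 2 or 4 or low replicate 1, 2 or 4, where PIL1 lost its call.

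Flavonoid genes fell in 5 of 8 tested and rose in none. CHI, chalcone isomerase, was at 13.8, 20.2, 14.7 and 14.9 at high and 46, 59.3, 56.4 and 55 TPM at low humidity (log2 change -1.72, SE 0.16, adjusted p = 4.1e-06). FLS1, flavonol synthase, was at 18.5, 24.5, 17.5 and 33.1 against 63.1, 65.2, 81.4 and 58.7 TPM (log2 change -1.51, SE 0.20, adjusted p = 1.1e-04). These calls held with each library left out, whereas PAP1, a MYB activator of anthocyanin genes (log2 change -2.16, adjusted p = 0.026), and CHS, chalcone synthase (log2 change -0.54, adjusted p = 0.021), were less certain. The lower count was 2 without high replicate 1, high replicate 3 or low replicate 2, and 3 without high replicate 4 or low replicate 3. In the energy list, DIN10, a dark-inducible raffinose synthase family gene, was at 155, 50.7, 74.3 and 81.6 against 5.36, 3.28, 4.29 and 2.78 TPM (log2 change 4.12, SE 0.34, adjusted p = 3.8e-06). TPS5, a class II trehalose phosphate synthase, was at 6.11, 13.7, 11.1 and 8.16 against 34.2, 28.7, 31.2 and 20.1 TPM (log2 change -1.48, SE 0.22, adjusted p = 2.5e-04). TPS8 also rose (log2 change 0.96, adjusted p = 0.023), but not without high replicate 1, high replicate 3, low replicate 2 or low replicate 3, so that 1 or 2 of 8 were higher and 1 lower. Of 4 tested hypoxia genes 1 rose and 1 fell (25% each, against 12.4% and 11.3% over all tested genes), with a median of -0.24. HRE1, a hypoxia-responsive ERF factor, was at 13.5, 6.09, 4.91 and 5.99 against 2.55, 2.36, 1.1 and 2.16 TPM (log2 change 1.44, adjusted p = 0.0022). SUS1, a sucrose synthase, was at 31.3, 32.9, 26.5 and 28 against 44.7, 46.4, 34.1 and 39.8 TPM (log2 change -0.46, adjusted p = 0.032), and lost its call without high replicate 1, 3 or 4 or low replicate 1, 2 or 4 (adjusted p = 0.051 to 0.093). Among 8 reference genes ACT2, actin 2, was the only 1 called, with 792, 792, 903 and 777 at high and 523, 449.8, 458 and 426 TPM at low humidity (log2 change 0.81, SE 0.09, adjusted p = 1.3e-05).

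Some of the largest changes lay outside these lists. AT1G72416, described as a DnaJ-domain protein, was at 231, 43.5, 73.2 and 77.1 at high and 1.11, 1.07, 0.98 and 0.89 TPM at low humidity (log2 change 5.45, SE 0.39, adjusted p = 1.5e-06). AT4G16563, described as an aspartyl protease, was at 113, 121, 138 and 89.8 against 2.4, 2.38, 3.07 and 2.1 TPM (log2 change 5.05, SE 0.14, adjusted p = 1.0e-10). PUP18, a purine permease, was at 268, 123, 153 and 153 against 11.6, 4.4, 2.7 and 3.97 TPM (log2 change 4.82, SE 0.45, adjusted p = 1.7e-05). DREB26, an AP2/ERF factor, was at 143, 80.2, 115 and 96.5 against 4.67, 2.82, 2.45 and 3.13 TPM (log2 change 4.68, SE 0.25, adjusted p = 4.4e-08). High replicate 1 was the highest library for AT1G72416, PUP18 and DREB26. No high library came near a low one, but lack of overlap was a condition for naming these genes. On the other side, HSFC1, a class C heat shock factor, was at 3.54, 3.03, 3.85 and 3.58 at high and 29.3, 60.6, 21.8 and 59.8 TPM at low humidity (log2 change -3.16, SE 0.36, adjusted p = 6.2e-05). AT1G73480, described as an alpha/beta-hydrolase, was at 13.5, 7.46, 8.17 and 12 against 80.2, 153, 61.1 and 271 TPM (log2 change -3.46, SE 0.44, adjusted p = 1.8e-04). For both, low replicates 2 and 4 were the highest. AT1G30250 and AT1G20070, which the table does not describe, fell too. AT1G30250 was at 6.56, 6.06, 4.35 and 6.35 against 109, 149, 68.9 and 80.2 TPM (log2 change -3.86, adjusted p = 1.2e-05). AT1G20070 was at 4.02, 4.38, 1.63 and 1.89 against 50.3, 61.9, 38.5 and 46.2 TPM (log2 change -3.71, adjusted p = 1.1e-06).

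Families defined by words in the table's descriptions, a grouping chosen after the values were seen, gave further counts. They are to be read against the shares over all tested genes, 12.4% higher and 11.3% lower. Of 46 tested NAC factors 13 were lower (10 to 14 over the alternatives) and 5 higher (3 to 6), and of 63 MYB factors 19 were lower (13 to 20) and 7 higher (6 to 10). NAP, a NAC factor of leaf senescence, was at 5.58, 9.17, 3.91 and 5.96 at high and 76, 39.2, 28.7 and 32.7 TPM at low humidity (log2 change -2.60, SE 0.34, adjusted p = 1.6e-04). MYB34, an activator of indole glucosinolate synthesis, was at 7.25, 9.01, 8.63 and 8.63 against 29.4, 48.6, 26.5 and 73 TPM (log2 change -2.16, adjusted p = 1.1e-04). MYB70 rose (42.9, 45.6, 46.1 and 33.4 against 2.21, 3.55, 1.97 and 2.78 TPM, log2 change 3.58, adjusted p = 2.0e-07). Of 37 bZIP factors 12 were higher (9 to 14) and 4 lower (0 to 4); BZIP61 was at 27, 25.2, 27.7 and 22 against 0.4, 0.54, 0.62 and 0.89 TPM (log2 change 4.04, SE 0.19, adjusted p = 7.7e-09). Cytochromes P450 were lower in 26 of 91 and higher in 8, and UDP-glycosyltransferases lower in 23 of 74 and higher in 10. Leucine-rich repeat kinases were higher in 23 of 112 (18 to 32) and lower in 10 (6 to 12); AT1G53430 was at 73.3, 66, 78.5 and 67.4 against 16.3, 15.7, 13 and 14.3 TPM (log2 change 2.19, adjusted p = 7.7e-09). Of 293 cytosolic ribosomal proteins 4 were higher (2 to 5) and 8 lower (4 to 14).

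Between low and moderate humidity 117 genes (0.674%) were called, a count that depended on single low libraries and on scaling. Without low replicate 1 it was 5605, or 722 after median-of-ratios scaling. Without low replicate 2, 3 or 4 it was 20, 21 and 23. The cause was not tested. Of the 117 genes, 39 were also called between high and low humidity, and both comparisons share the 4 low libraries. HB22, a zinc-finger homeodomain factor, was at 11.2, 16, 10.4 and 12.3 TPM at high, 18.1, 23.7, 23.8 and 22.9 TPM at low and 9.68, 9.83, 12 and 10.9 TPM at moderate humidity (high minus low -0.78; low minus moderate 0.99, adjusted p = 0.0055). AT1G72800, described as an RNA-binding protein, was at 7.32, 9.44, 10.4 and 7.76, 6.58, 5.66, 6.06 and 5.52 and 10.7, 11.9, 14.3 and 11.6 TPM in the same order (high minus low 0.47; low minus moderate -0.91, adjusted p = 0.0055). Low humidity thus gave the highest values of HB22 and the lowest of AT1G72800. AT1G25275, described as a thionin-like protein, was at 50.4, 42, 34.6 and 47, 31.2, 32.7, 29.9 and 29.2 and 16, 19.1, 14.9 and 15.1 TPM (high minus low 0.47; low minus moderate 0.89, adjusted p = 0.0055), which is a different order, with moderate humidity lowest. The count of genes called in both comparisons was 1446 without low replicate 1, 6 without low replicate 2, 5 without low replicate 3, 7 without low replicate 4, 19 without high replicate 2 or high replicate 4, and 11 without high replicate 3.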

How the data were processed

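RNA of Col-0 leaves was sequenced from TruSeq libraries on a HiSeq instrument, per the labels' protocols. The deposited table gives TPM per gene. The submitters' processing notes name fastp, HISAT2 and RSEM and the build TAIR10, with no versions. TPM is a share of all transcripts, so a few very abundant genes that change can shift the others, and deposited TPM carries no depth.

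All 12 libraries entered 1 limma fit (limma 3.58.1, R 4.3.3; trend and robust moderation, 9 residual degrees of freedom) on log2(TPM + 1), with humidity as the only term and the contrast high minus low. Genes at 1 TPM or more in at least 4 libraries were tested, p-values were adjusted by Benjamini-Hochberg over 17368 genes, and 0.05 was the threshold. The photosynthetic share was compared with an exact permutation test (SciPy 1.17.1). The fit was tested on simulated data.

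For the 15 largest rises and 15 largest falls, the rule for named genes took called genes without overlap between the groups. Their mean log2(TPM + 1) had to be at least 1. From each list the rule took the 4 genes of smallest adjusted p, whether called or not and with or without overlap. The rule further took up to 10 genes called in both comparisons, again regardless of overlap. It also took all members of the ABA synthesis, ABA breakdown and proline lists. The other genes named, among them PYL6, PP2CA, XTH24, CER1, OPR3, CESA7, AGP15, NAP and MYB34, were chosen after their values were seen. Members and lists were chosen with earlier results of these data known. Alternatives were median-of-ratios scaling, a pseudocount of 0.1, no filter, the 8 libraries alone, a replicate block, and each library left out. Promoter windows come from RefSeq's TAIR10.1.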

Additional observations from a re-analysis of the deposited data

Results flagged for a closer look

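In 40 of the 494 groups of 4 libraries examined, 1 library stood far from the other 3, where chance gives about 1 in 20; the gap to the nearest other library, divided by the range of the group, passed Dixon's critical value. High replicate 1 was that library in 11 cases, low replicate 1 in 7, high replicate 2 and low replicate 4 in 6 each, high replicate 4 and low replicate 3 in 3 each, and high replicate 3 and low replicate 2 in 2 each. All values are TPM, and the range of the other 3 libraries of the same group stands in brackets.

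High replicate 1 had GAPC2 at 642 (731 to 738), HRE1 at 13.5 (4.91 to 6.09), AAO3 at 6.46 (5.74 to 5.86) and BZIP28 at 24.7 (18.5 to 19). It also had NCED3 at 1.41 (0.69 to 0.74), XTH23 at 110.0 (30.6 to 42.8), ACS8 at 12.1 (1.31 to 2.81) and PYL5 at 109.6 (33.1 to 44.1). Further genes of this library were AZF1 at 11.2 (4.02 to 4.63), XTH25 at 55 (25.8 to 28.3) and AT4G22620 at 0.53 (0 to 0.06). High replicate 2 had HAI2 at 0.38 (0.06 to 0.10), CER5 at 112 (88.3 to 91.9), PIP2;3 at 71.7 (82.6 to 83) and XTH16 at 124 (177 to 181). It also had CHI at 20.2 (13.8 to 14.9) and CESA4 at 4.46 (5.01 to 5.06). High replicate 3 had ACT2 at 903 (777 to 792) and DWF4 at 11.3 (9.48 to 9.7). High replicate 4 had ALMT12 at 5.78 (3.79 to 4.03), AT5G53710 at 0.24 (0 in each) and XTH32 at 48.2 (36.5 to 38.3). Low replicate 1 had ABA4 at 32 (20.6 to 22.3), LHB1B2 at 7728 (10314 to 10587), ARR8 at 32.9 (22.7 to 23.5) and SNRK2.2 at 15.5 (11.1 to 11.6). It also had ACS6 at 15.2 (6.47 to 7.02), HB22 at 18.1 (22.9 to 23.8) and BZIP1 at 5 (2.88 to 2.9). Low replicate 2 had BZIP44 at 0.36 (0.89 to 0.98) and PIP2;3 at 575 (366 to 389). Low replicate 3 had PIP2;7 at 425 (336 to 347), AGP21 at 97.4 (68.6 to 71.6) and FLA13 at 119 (93 to 94.7). Low replicate 4 had XTH25 at 1.54 (0.78 to 0.86), OPR3 at 666 (14.4 to 85.7), LOX3 at 287 (7.02 to 24.5) and VSP2 at 68.4 (0.42 to 3.63). It also had CYP94C1 at 4.45 (0.06 to 0.68) and CNGC4 at 35.2 (41.8 to 42.4).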

How the results depend on the processing

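The main limits are that 4 libraries per setting from 1 chamber each were compared, that TPM gives shares and no depth, so that low genes cannot be told from noise by counting error, and that low replicates 1 and 4 and high replicate 1 stand apart in some genes. Over the 15 alternatives, 1798 to 2612 genes were higher and 1426 to 2012 lower, and 1658 and 1184 genes were called in every setting. The share of calls that were lower was 47.7%, 43.5% after median-of-ratios scaling, which moved the median of all genes from -0.06 to -0.02, and 39.4% without low replicate 1. At a pseudocount of 0.1, 622 genes in place of 422 were lower by at least 2-fold. Of 151 named genes that were called, 126 held under every alternative, and no direction of a call reversed.

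The count of genes called in both comparisons, 39, depended on the setting: it was 15 with no filter, 8 with the replicate block, 5 with the block and median-of-ratios scaling, 5 to 1446 with single libraries left out, and 268 without low replicate 1 after median-of-ratios scaling. The count called between low and moderate humidity, 117, was 59 with no filter, 26 with the replicate block, 10 with the block and median-of-ratios scaling, 722 without low replicate 1 after that scaling, and 20 to 5605 with single libraries left out. The alternatives for these counts were chosen after seeing the data, and the cause was not tested. Deviations of same-numbered high and low samples correlated weakly (r = -0.002, -0.019, 0.151 and 0.013 for numbers 1 to 4). The highest r with a sample of another number was 0.186, 0.126, -0.017 and 0.026. Such values over all genes cannot settle whether the replicate numbers pair the libraries, and the labels do not say. With the replicate block 2060 genes were higher and 1654 lower. Under the block PP2CA was not called (adjusted p = 0.062, or 0.086 with median-of-ratios scaling) and JAZ8 was called higher (1.03, adjusted p = 0.037, or 0.042 with that scaling). The photosynthetic share differed by -2.95 to -1.42 percentage points with single libraries left out.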

Other observations

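Genes outside the lists, taken from families of the table's descriptions after their values were seen, also changed. XERICO, a RING protein that promotes ABA accumulation, was at 11.2, 9.33, 6.13 and 8.44 at high and 42.9, 37.1, 20.5 and 37.4 TPM at low humidity (log2 change -1.84, SE 0.22, adjusted p = 4.5e-05, limma). AT3G28200, described as a peroxidase, was at 226, 175, 223 and 175 against 22.8, 32.2, 27.9 and 31.3 TPM (log2 change 2.76, SE 0.12, adjusted p = 5.0e-09, limma). UGT85A1, a glycosyltransferase that acts on cytokinins, was at 62.8, 34.9, 42.9 and 50.6 against 7.01, 5.91, 5.08 and 5.26 TPM (log2 change 2.82, SE 0.19, adjusted p = 2.0e-07, limma). None of the 3 overlapped between the groups, which adds no support given how they were chosen.

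SAUR proteins, products of early auxin-responsive genes, were higher in 7 and lower in 6 of 41 tested, close to the 12.4% and 11.3% over all tested genes. AT1G72430 was at 430.1, 465, 519 and 415 against 107, 97.8, 99.7 and 107 TPM (log2 change 2.14, adjusted p = 1.2e-08, limma). AT4G22620 was at 0.53, 0, 0 and 0.06 against 6.98, 10.7, 4.65 and 8.98 TPM (log2 change -2.92, adjusted p = 3.8e-05, limma). CYP71B26, a cytochrome P450, was at 5.58, 14.7, 10.5 and 8.56 against 71.7, 56.7, 49.3 and 41.3 TPM (log2 change -2.40, adjusted p = 2.1e-05, limma).

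A change of at least 2-fold without a call was seen for 70 genes upward and 86 downward, and of at least 4-fold for 12 and 5. CYP94C1, an enzyme of jasmonate breakdown, was among them, at 55.1, 0.75, 6.07 and 17.9 at high and 0.06, 0.68, 0.15 and 4.45 TPM at low humidity (log2 change 2.55, adjusted p = 0.091, limma). CLH1, a chlorophyllase, did not overlap between the groups and yet was not called, at 48.5, 33, 38.7 and 49 against 62.1, 165, 67.7 and 542 TPM (log2 change -1.72, adjusted p = 0.069, limma), with low replicate 4 far above the other low libraries.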
